A study of Mus musculus with 15 samples.

Results

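RNA sequencing libraries of mouse colon cancer organoids titled Met3_AKP were compared with libraries titled Met2_AKP, 3 against 3 libraries out of 15 in the series, across all genes and along the genome. Met3 and Met2 are taken here, from the titles, as organoids recovered from metastases of the third and the second round. The other 9 libraries are 3 of first-round metastases (Met1) and 3 each of primary tumours of round 3 (Primary3) and round 2 (Primary2), and they entered the comparison as context and as a source of the spread between replicates. Every group shared the genotype, named AKP, in which A and P stand in this field for altered Apc and Trp53, and every group had C57Bl6 recipient mice. The labels name no allele, no promoter or Cre that made these alterations, and no normal or untransplanted organoid. They do not say whether the replicates of a group are separate mice, organoid lines or cultures, so the p-values speak only for the spread among these libraries. The series title names GATA6, a transcription factor of the gut epithelium. The comparison of round 3 with round 2 asks what differs in the RNA of organoids after a further round of metastasis.

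Organoids are cultures of epithelial cells that grow as small hollow or budding bodies in matrix, and AKP organoids form tumours when placed into mice. Repeated passage through metastasis can change a tumour culture gene by gene, through regulators such as transcription factors, or over whole stretches of a chromosome, so that neighbouring genes move together. For that reason the position of each changed gene was read beside its level. Levels are given as CPM, the count of a gene scaled to a common library size with library sizes adjusted by the TMM method.

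Total counts were 18763919, 18584990 and 19531701 in Met3 and 15134381, 16220780 and 14892932 in Met2. Met2 replicate 1 stood apart from the other 5 libraries: its rank correlation with them across genes was 0.904 to 0.931, against 0.963 to 0.978 among those 5. The median standard deviation of log2 CPM between replicates was 0.252 in Met3, 0.346 in Met2 and 0.218 in Met2 without replicate 1. The ribosomal RNA gene CT010467.1 took 3.85%, 4.09% and 3.38% of counts in Met3 and 6.33%, 6.24% and 7.52% in Met2, so the groups did not overlap. With that share as a covariate 0 genes passed the test described next, the 41 genes called without it having an adjusted p of 0.0724 to 0.328. Epithelial markers were high, with Epcam at 894 to 970.1 CPM in Met3 and 777 to 826 CPM in Met2. Krt8, a keratin of simple epithelia, was at 3693, 4269 and 3066 CPM in Met3 and at 824, 3568 and 4043 CPM in Met2, so Met2 replicate 1 was low. Summed over their lists, stromal markers reached 0.157 to 0.922 CPM in Met3 and 0.220 to 5.28 CPM in Met2, with Dcn (2.27 CPM) and Col3a1 (1.67 CPM) highest in Met2 replicate 1. Endothelial markers summed to 6.75 to 14.1 CPM in Met3 and 5.21 to 9.16 CPM in Met2, and Kdr, Cldn5 and Emcn had 0 counts in all 6 libraries. Leukocyte markers summed to 549 to 1056 CPM in Met3 and 721 to 780 CPM in Met2, most of it Ly6g, while Ptprc stayed at or under 0.335 CPM and Adgre1 and Tyrobp had 0 counts. Markers of hepatocytes and cholangiocytes summed to 4537 to 5227 CPM in Met3 and 2277 to 6600 CPM in Met2. Nearly all of that was Epcam and Krt7, with Krt7 at 3642 to 4257 CPM in Met3 and 1458 to 5824 CPM in Met2. Of the hepatocyte markers on that list, Alb stayed at or under 0.0644 CPM and Ttr had 0 counts. The part of these differences in the results was not tested.

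Of 14925 genes tested, 41 passed edgeR's quasi-likelihood test at an adjusted p under 0.05, which is 0.275% of the genes. Met3 was higher for 8 genes (0.0536%) and lower for 33 (0.221%). Of the 33 lower genes 17 lie on chromosome 9 and start beyond 85 Mb, while the other 16 and the 8 higher genes were scattered over 16 other chromosomes. None of the 41 genes had overlapping Met3 and Met2 libraries, and 24 differed at least 2-fold. Such separation of 3 from 3 libraries was common across the genome, at 7.77% of genes with Met3 above and 7.64% with Met3 below. The 41 calls were sensitive to the libraries used: without Met2 replicate 1 no gene passed, although 41 of 41 kept their direction (adjusted p 0.0583 to 0.144), and 2 passed without Met3 replicate 1 or 2, 10 without Met3 replicate 3, 68 without Met2 replicate 3 and 203 without Met2 replicate 2. In bulk organoid RNA, fewer cells of a type and less RNA per cell cannot be told apart.

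The strongest separation by adjusted p among protein-coding genes was that of Hyal2, which encodes a cell-surface hyaluronidase that cuts the matrix sugar hyaluronan (ENSMUSG00000010047, GRCm38 chromosome 9, 107567945 to 107572779). Hyal2 stood at 6.04, 8.60 and 11.8 CPM in Met3 and at 37.8, 30.2 and 31.9 CPM in Met2. The lowest Met2 library was thus well above the highest Met3 library, and Hyal2 fell by a log2 of 1.92 (SE 0.25, adjusted p = 0.0235). Without Met2 replicate 1 the adjusted p of Hyal2 was 0.0583. Met1, Primary3 and Primary2 averaged 44.0 ± 11.8, 38.7 ± 1.17 and 49.5 ± 7.78 CPM (SD, n = 3 each), so the Met3 libraries also stood below every library of those groups.

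The 3 called neighbours of Hyal2 form a cluster with it, with gaps under 100 kb, and were lower as well. Tusc2, a tumour suppressor candidate of mitochondria (107563255 to 107566112), had 15.4, 13.3 and 12.7 CPM in Met3 and 24.7, 27.0 and 34.7 CPM in Met2 (log2 -1.06, SE 0.15, adjusted p = 0.0342). Nprl2, a subunit of the GATOR1 complex that restrains mTORC1 when amino acids are scarce (107542226 to 107545706), had 7.81, 8.89 and 9.59 CPM in Met3 and 19.4, 15.9 and 14.5 CPM in Met2. It fell by a log2 of 0.92 (SE 0.15, adjusted p = 0.0354). Naa80, the enzyme that acetylates the N-terminus of actin (107578887 to 107584050), had 5.50, 6.29 and 4.98 CPM in Met3 and 19.2, 10.3 and 17.4 CPM in Met2 (log2 -1.48, SE 0.28, adjusted p = 0.0499). In each of these genes the 3 Met3 libraries lay close together and below the lowest Met2 library. Naa80 shares 60.9% of its annotated exon bases with Hyal1 on the same strand, so its estimated counts are uncertain.

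All 12 tested genes that start within 50 kb of the Hyal2 start had a negative log2 change, with a median of -0.82 and a range of -1.92 to -0.35. Of these 12, 4 were called lower and 10 had no overlap. Over all tested genes 0.221% were called lower and 7.64% had all Met3 libraries below Met2. From 105 to 115 Mb of chromosome 9 these shares were 9.93% and 58.9%. The 12 include Hyal2, around which the range was set, so the counts describe its surroundings and test nothing. Rassf1, a Ras-association tumour suppressor, stood at 58.9, 74.1 and 50.7 CPM in Met3 and 95.4, 86.1 and 109 CPM in Met2 (log2 -0.66, SE 0.16), but it was not called (adjusted p = 0.0974). Gnai2, an inhibitory G protein subunit, had 210, 229 and 264 CPM in Met3 and 312, 330 and 467 CPM in Met2, also without a call (log2 -0.66, SE 0.15, adjusted p = 0.0856). The semaphorin gene Sema3b was the exception to separation with a large change, at 18.5, 16.4 and 30.5 CPM in Met3 and 81.9, 27.3 and 85.5 CPM in Met2 (log2 -1.57, SE 0.35, adjusted p = 0.0757). Here Met3 replicate 3 exceeded Met2 replicate 2.

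**Figure D1:**
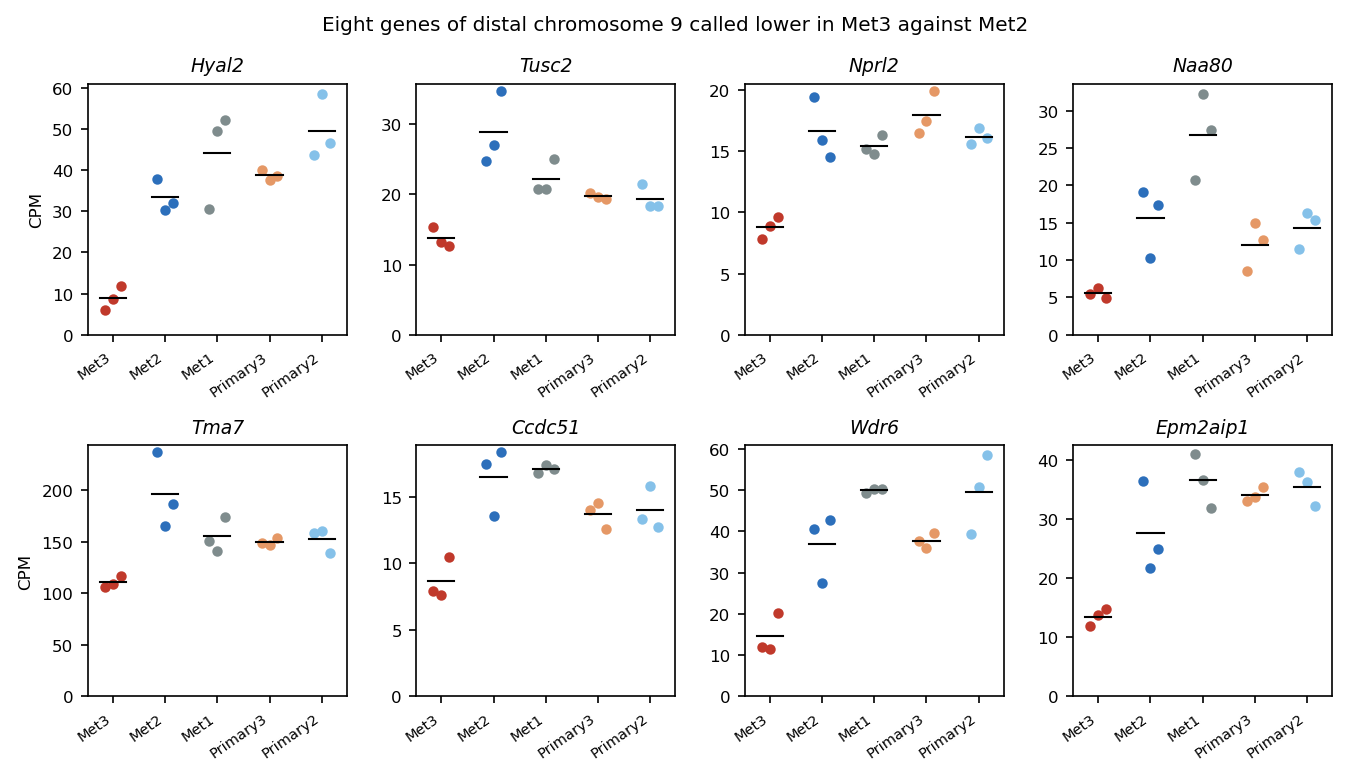
CPM of 8 genes of distal chromosome 9 in each library (points) with the group mean (line), for Met3, Met2, Met1, Primary3 and Primary2. In each panel the 3 Met3 libraries sit below the 3 Met2 libraries and below the libraries of the other groups, for example Hyal2 at 6.04 to 11.8 CPM in Met3 and 30.2 to 37.8 CPM in Met2.

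The called genes Tma7 and Ccdc51 are transcribed outward from a shared stretch of DNA, and both were lower in Met3. The stretch is shown because it lies between their starts in the RefSeq table. In GENCODE, whose coordinates are given below, the start of Tma7 lies beyond that of Ccdc51, so that the stretch is inside the annotated Tma7 gene. The sequence was read from RefSeq promoter sequence of GRCm38.p6, chr9:109082382-109082495, on the plus strand. Capitals mark ATTGG, the reverse complement of CCAAT, the box bound by the NF-Y factor, which was searched on both strands.
between the RefSeq starts of Tma7 and Ccdc51: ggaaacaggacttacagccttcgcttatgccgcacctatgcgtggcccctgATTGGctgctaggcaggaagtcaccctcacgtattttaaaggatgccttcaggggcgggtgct
CCAAT is common, present in 12289 of 32851 promoter windows of 300 bases (37.4%). Of the 31 called genes that the table holds, 17 had it in any of their windows. The first share counts windows and the second counts genes, so they cannot be compared. The match is a description of the letters only.

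Epm2aip1, which encodes a partner of the glycogen phosphatase laforin (chromosome 9, 111271929 to 111279093), had 12, 13.7 and 14.8 CPM in Met3 and 36.4, 21.8 and 25 CPM in Met2. All Met3 libraries were lower, with a log2 change of -1.04 (SE 0.18, adjusted p = 0.0386). Met1, Primary3 and Primary2 were on the Met2 side, at 36.5, 34.1 and 35.5 CPM on average.

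Tma7, a small protein tied to the translation machinery (chromosome 9, 109074568 to 109082587), had 106, 109 and 117 CPM in Met3 and 237, 165 and 187 CPM in Met2 (log2 -0.83, SE 0.13, adjusted p = 0.035). Its partner across the stretch, Ccdc51, a protein of the inner mitochondrial membrane (109082493 to 109092489), had 7.92, 7.62 and 10.5 CPM in Met3 and 17.5, 13.5 and 18.4 CPM in Met2 (log2 -0.92, SE 0.17, adjusted p = 0.0499). The annotated exons of this pair overlap by 75 bases on opposite strands, and whether counting used strand is not given in the sources used here. Larger shares of exon bases overlap a gene on the opposite strand in other called genes, whose counts are uncertain too. Among them are Tusc2 (27.1%, Gm9917), Txnip (19.4%, Gm15441), Morf4l1 (15.4%, Gm26882), Wdr6 (9.20%, Dalrd3), Nepro (9.01%, Gtpbp8) and Rbm12b2 (8.33%, Tmem67).

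Another 9 called genes of chromosome 9 fell too. Wdr6, a partner of a tRNA methyltransferase, had 12, 11.5 and 20.2 CPM in Met3 and 40.5, 27.5 and 42.8 CPM in Met2, with a log2 change of -1.34 (SE 0.23, adjusted p = 0.0386). Rbm6, an RNA-binding splicing regulator, had 34.3, 38.3 and 39.8 CPM in Met3 and 60.1, 55.8 and 68.7 CPM in Met2 (log2 -0.72, SE 0.11, adjusted p = 0.035). Stt3b, a catalytic subunit of the oligosaccharyltransferase that adds N-glycans, was the called gene nearest the chromosome's end, at 101, 101 and 103 CPM in Met3 and 158, 130 and 173 CPM in Met2 (log2 -0.59, SE 0.11, adjusted p = 0.0499). These genes are of unlike function, and Wdr6 had the largest fall of the 3. A further 6 are the SH3-domain protein Nckipsd (-1.20), the endoplasmic reticulum autophagy receptor Tex264 (-1.08), the cargo receptor Tmed3 (-1.04), the chromatin reader Morf4l1 (-0.83), the peptidase Apeh (-0.81) and the deubiquitinase Usp4 (-0.79), with adjusted p from 0.035 to 0.0433. Tex264 was the only called lower gene of the 33 for which a Met3 library did not stand below all 12 other libraries.

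The fall extended past the called genes. Between 105 and 115 Mb of chromosome 9, 141 genes were tested, of which 14 were called lower (9.93%) and 0 higher. In 83 of the 141 genes (58.9%) all 3 Met3 libraries were below all 3 Met2 libraries, and in 0 genes all 3 were above. The log2 change was negative in 123 genes (87.2%), with a median of -0.65 and quartiles of -0.83 and -0.43, while the median over all tested genes was -0.01. This stretch joins the 2 windows with the lowest medians, so it was chosen by these values, which describe it and test nothing. DESeq2, used as an alternative test, called 588 of 13979 genes (4.21%) and 64 genes of the stretch, all 64 lower. Between 85 and 105 Mb the same chromosome had 101 tested genes, 2 of them called lower and 0 higher, and a median of -0.25. There 18.8% of genes had all Met3 libraries below Met2 and 7.92% had them above, against 7.64% and 7.77% of all tested genes. Below 85 Mb the chromosome had 514 tested genes, 0 calls, and 5.06% of genes with all Met3 libraries below Met2.

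Among the most abundant genes of that segment, Rhoa, a GTPase of the actin cytoskeleton, had 189, 250 and 235 CPM in Met3 and 380, 292 and 429 CPM in Met2 (log2 -0.71, adjusted p = 0.0851). The ribosomal protein gene Rpl29 had 544, 599 and 638 CPM in Met3 and 962, 745 and 934 CPM in Met2 (log2 -0.57, adjusted p = 0.082). Manf, a secreted factor of the unfolded protein response, had 171, 186 and 165 CPM in Met3 and 287, 226 and 286 CPM in Met2 (log2 -0.62, adjusted p = 0.0525). None of these 3 was called, and in none did the groups overlap; they were picked for abundance after their values were seen. The 18 genes of the segment with a positive change included Rps27rt at a log2 of 0.05 and Pik3r4 at 0.13, and their libraries overlapped.

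Of the genes on the lists used here, 6 tested ones that were not called start on chromosome 9 from 105 Mb on. All 6 had a negative change, 4 of them without overlap. Among all 220 tested genes from 105 to 125 Mb, 85.5% had a negative change, and in 45% all Met3 libraries were below Met2. The counts of the 6 are therefore no result about the lists. Smarcc1, a core subunit of SWI/SNF chromatin remodellers, had 31.7, 35.8 and 40.5 CPM in Met3 and 62.5, 50.8 and 60.7 CPM in Met2, just short of a call (log2 -0.69, SE 0.13, adjusted p = 0.0525). Atrip, the partner of the checkpoint kinase ATR, had 8.62, 9.75 and 10.6 CPM in Met3 and 16.7, 14.1 and 14.9 CPM in Met2 (log2 -0.66, adjusted p = 0.119). Tgfbr2, the type II TGF-beta receptor, overlapped, at 53.6, 37.2 and 42.1 CPM in Met3 and 52.6, 72.4 and 112 CPM in Met2 (log2 -0.83, adjusted p = 0.186). The others were Gpx1 (-0.38, adjusted p = 0.143) and Uqcrc1 (-0.47, adjusted p = 0.235), and Rbms3, which was nearly silent outside Met2 replicate 1.

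**Figure D2:**
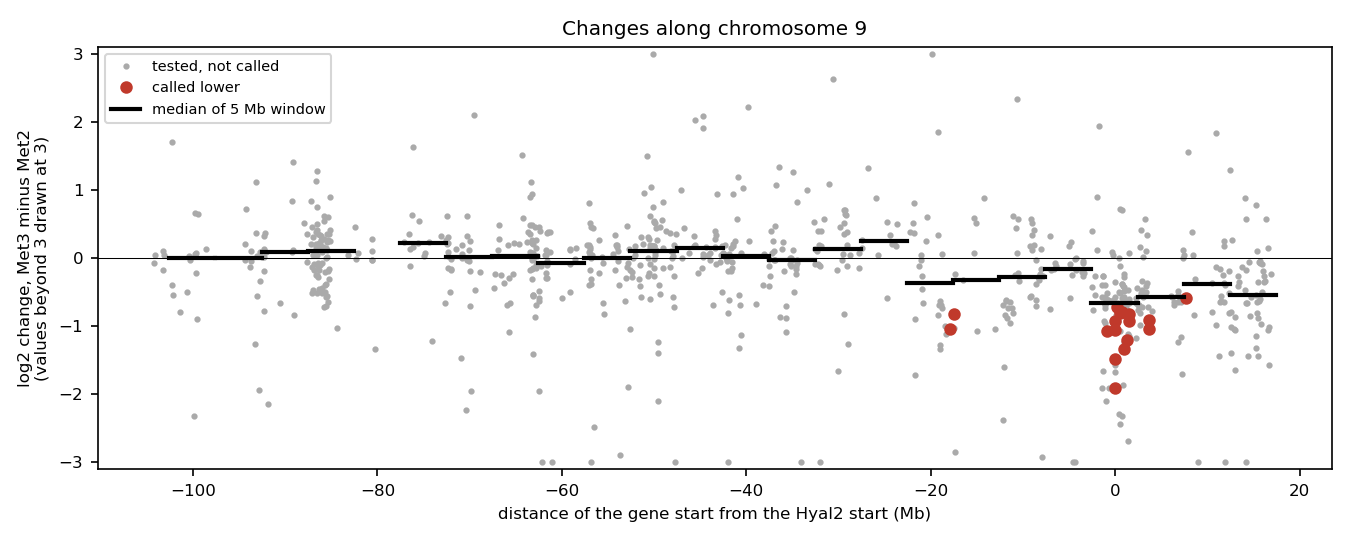
Log2 change of each tested gene of chromosome 9, Met3 minus Met2 (vertical axis), against the distance of its start from the Hyal2 start in Mb (horizontal axis), with the median of each 5 Mb window as a bar and called genes in red. The 17 called genes are all below 0 and lie to the right, and window medians reach -0.66 there. The median over genes was -0.25 from 85 to 105 Mb of the chromosome and 0.05 below 85 Mb.

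Each library was also given a level for the segment, the median over its genes of log2 CPM minus the gene's mean over the 6 libraries. Between 105 and 115 Mb these levels were -0.31, -0.27 and -0.26 in Met3 and 0.32, 0.11 and 0.52 in Met2. The 3 Met3 libraries were close together, and Met2 was more spread, with replicate 2 nearest to Met3. On the same scale Met1 was at 0.55, 0.45 and 0.50, Primary3 at 0.17, 0.14 and 0.13 and Primary2 at 0.18, 0.22 and 0.21. The Met3 libraries were therefore the lowest of all 15, below Met1, Met2 and both primary groups. In 57 of the 141 genes (40.4%) all 3 Met3 libraries stood below all 12 others, against 2.64% of all tested genes. The 12 include the Met2 libraries by which the stretch was chosen, so this contrast is partly set by that choice. The median change of the segment between Primary3 and Primary2 was -0.06.

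**Figure D3:**
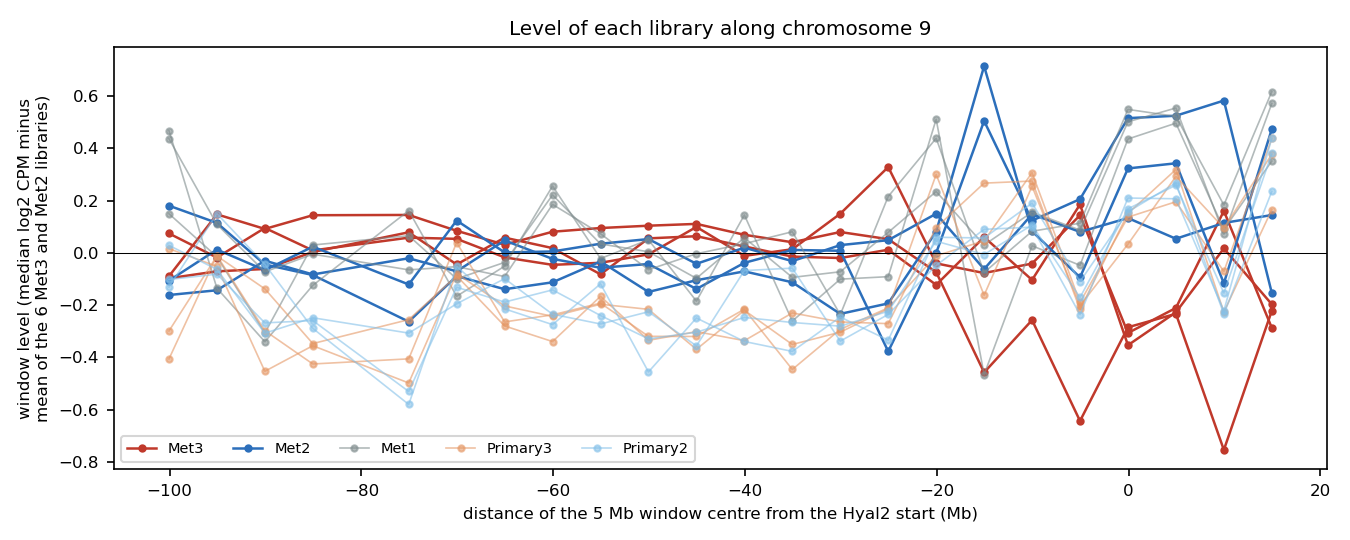
Level of each of the 15 libraries in 5 Mb windows along chromosome 9 (vertical axis, log2 scale, relative to the mean of the 6 Met3 and Met2 libraries) against distance of the window centre from the Hyal2 start in Mb. Near 0 Mb the 3 Met3 lines lie together below 0 and every other line lies above it, while to the left of it and to its right single Met3 lines separate from the others.

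Of 425 windows of 5 Mb with at least 10 tested genes, those at 105 to 110 Mb and 110 to 115 Mb of chromosome 9 had the lowest medians, -0.66 over 100 genes and -0.57 over 41 genes. With any 1 of the 6 libraries left out they ran from -0.75 to -0.56 and from -0.69 to -0.46. The third lowest, 120 to 125 Mb of the same chromosome, had a median of -0.55 over 51 genes and 0 calls, and rested more on a single library, at -0.24 without Met2 replicate 1. Over all windows, the central 90% of medians lay between -0.25 and 0.24. The level of the 3 Met3 libraries was below that of the 3 Met2 libraries in 14 windows (3.29%) and above it in 35 (8.24%). Over the better expressed genes (mean log2 CPM from 3 upward), single libraries of both groups also departed from the rest on chromosome 9. The level of Met3 replicate 3 was 0.91 below the median of the other 5 libraries at 100 to 105 Mb and 0.84 below it at 115 to 120 Mb. By this measure Met2 replicate 3 was 0.84 above at 105 to 110 Mb and 0.77 above at 110 to 115 Mb. Met2 replicate 1 was 0.62 and 0.56 above in the same windows, and Met3 replicate 1 was 0.51 below at 105 to 110 Mb. Since the groups differ from 105 to 115 Mb, the departures there partly restate that difference.

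The windows with the highest medians held no called gene and did not separate the groups. The highest were 70 to 75 Mb of chromosome 4 (0.85, and 0.15 without Met3 replicate 1), 100 to 105 Mb of chromosome 4 (0.84, and 0.07 in windows of 10 Mb) and 95 to 100 Mb of chromosome 5 (0.60, and 0.01 without Met3 replicate 1). Some stretches marked 1 library instead of a group. By the same measure, against the median of the other libraries, Met3 replicate 2 was 1.02 higher at 80 to 85 Mb of chromosome 11. Met3 replicate 1 was 1.60 higher at 10 to 15 Mb of chromosome 7, where Met2 replicate 1 was 1.36 lower. By whole chromosome, chromosome 19 had 14.8% of tested genes with all Met3 libraries above Met2, with a median change of 0.13. Its level was -0.01, -0.03 and 0.27 in Met3 and -0.08, -0.04 and -0.05 in Met2, so Met3 replicate 3 stood apart from the other 5 libraries. Chromosome 9 had the largest share with Met3 below, at 17.2%.

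**Figure D4:**
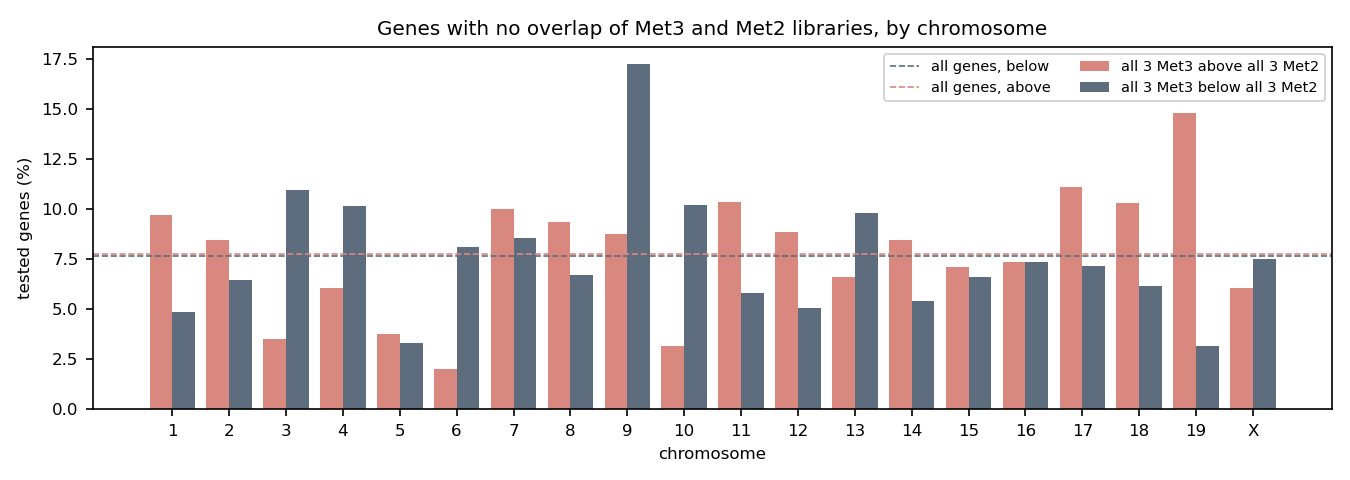
Share of tested genes on each chromosome (percent, vertical axis) in which all 3 Met3 libraries were above (red) or below (grey) all 3 Met2 libraries, with the shares over all genes, 7.77% and 7.64%, as dashed lines. Chromosome 9 has the tallest grey bar, and chromosome 19 has the tallest red bar at 14.8%.

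Among the 8 genes that rose, Txnip had the largest fitted change among those with counts in both groups. Its protein binds thioredoxin and, as an arrestin, lowers glucose uptake, and its promoter holds a known carbohydrate response element through which glucose raises it (ENSMUSG00000038393, chromosome 3, 96557957 to 96561883). The 250 bases before its start, RefSeq GRCm38.p6 chr3:96557707-96557956 on the plus strand, are shown because they hold a match to a form of that element. Capitals mark a match to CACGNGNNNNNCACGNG, a paired E-box form of the element, searched on both strands.
Txnip, the 250 bases before the start: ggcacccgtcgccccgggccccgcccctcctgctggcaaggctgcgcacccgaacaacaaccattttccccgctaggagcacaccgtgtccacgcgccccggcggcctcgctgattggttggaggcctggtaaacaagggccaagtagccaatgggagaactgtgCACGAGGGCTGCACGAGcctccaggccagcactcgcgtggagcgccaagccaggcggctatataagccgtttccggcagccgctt
This pattern was found in 16 of 32851 promoter windows (0.0487%), and Txnip was the only 1 of the 31 called genes in the table to hold it. The match at Txnip tests nothing, since its element was known beforehand, and other forms of the element were not searched.

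Txnip stood at 415, 294 and 127 CPM in Met3 and 68.8, 81.0 and 85.4 CPM in Met2. The Met3 libraries were spread over a wide range, all above Met2, and the log2 rise of Txnip was 1.83 (SE 0.31, adjusted p = 0.0386). Met1 averaged 120 CPM, so Met3 replicate 3 was within the range of Met1. Arrdc4, an arrestin paralog of Txnip that glucose also raises, had 54.5, 24.2 and 21.1 CPM in Met3 and 14.5, 13.2 and 17.0 CPM in Met2. Its groups did not overlap, but it was not called (log2 1.16, adjusted p = 0.157). The pattern marked at Txnip had 0 matches in the Arrdc4 promoter window, where other forms of the element were not searched.

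Ppp1r10, a nuclear regulatory subunit of protein phosphatase 1, had 79.3, 80.6 and 55.7 CPM in Met3 and 24.4, 30.9 and 36.3 CPM in Met2 (log2 1.23, SE 0.22, adjusted p = 0.0404). Brd2, a bromodomain reader of acetylated histones, had 303, 283 and 254 CPM in Met3 and 156, 169 and 178 CPM in Met2 (log2 0.74, SE 0.12, adjusted p = 0.0386). For Ppp1r10 and Brd2 the Met3 libraries were above all 12 others. Trim16, a ubiquitin ligase recruited to damaged lysosomes, rose by a log2 of 0.76 (136, 159 and 139 CPM in Met3, 77.9, 86.1 and 92.1 CPM in Met2), and the nucleolar protein gene Nepro by 0.79 (30.0, 27.6 and 28.0 CPM in Met3, 15.8, 17.0 and 16.9 CPM in Met2), each with an adjusted p = 0.0386. Dcaf15, a substrate receptor of a ubiquitin ligase, had the smallest change of the 41, a log2 of 0.54 (43.8, 42.3 and 37.6 CPM in Met3, 30.3, 27.0 and 28.0 CPM in Met2, adjusted p = 0.0404). In the same fit Dcaf15 changed by a log2 of 0.48 between Primary3 and Primary2 (49.3 and 35.3 CPM on average, adjusted p = 0.577).

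The processed pseudogene Gm48048, also higher, had 0 counts in Met2 and 86 counts over Met3 (0.970, 2.08 and 1.68 CPM), at least 23.1-fold higher against a floor of 3 counts over the group (adjusted p = 0.0226). It was present in Met1 and both primary groups at 1.60 to 1.94 CPM on average, so Met2 was the only group without counts. A pseudogene shares sequence with its parent gene, so its reads are uncertain.

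**Figure D5:**
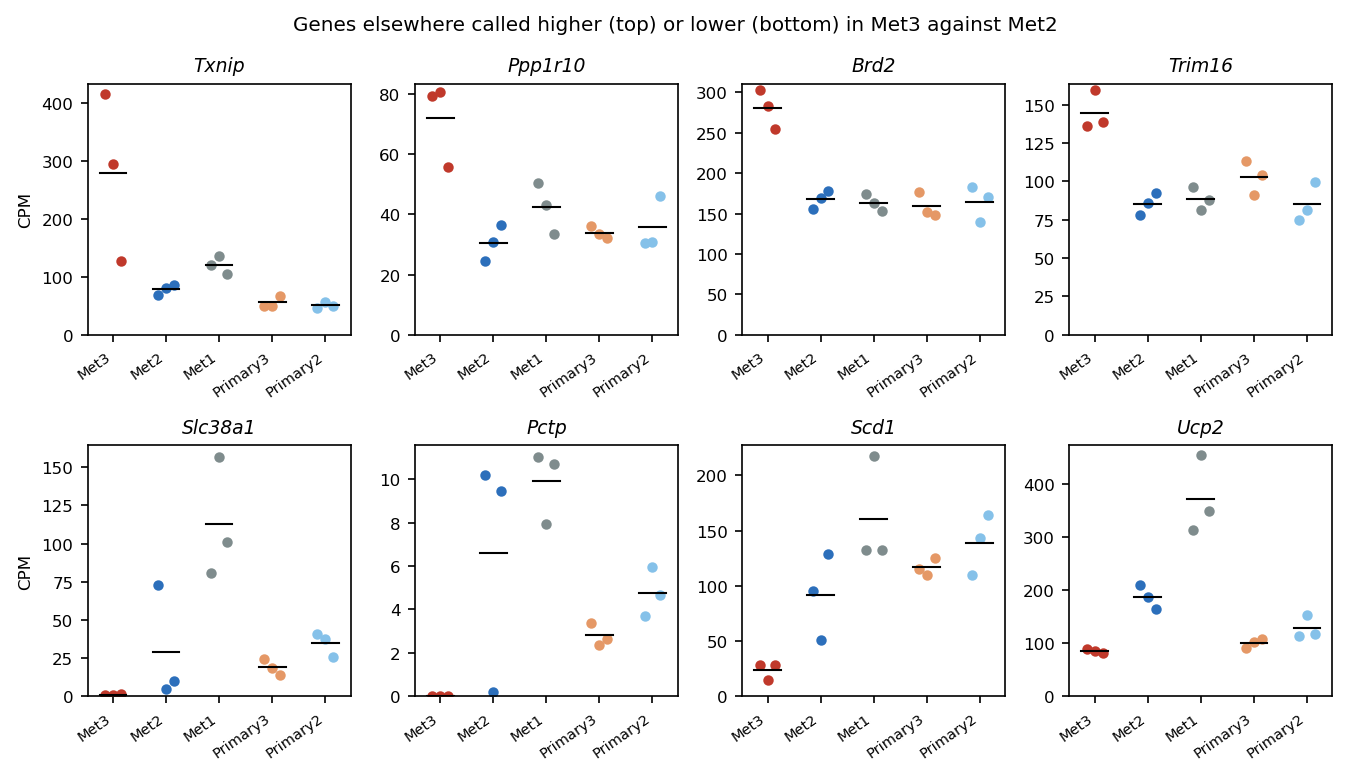
CPM of 8 called genes outside chromosome 9 in each library (points) with the group mean (line), for Met3, Met2, Met1, Primary3 and Primary2. The top panels (Txnip, Ppp1r10, Brd2, Trim16) have the Met3 points above the Met2 points, and the bottom panels (Slc38a1, Pctp, Scd1, Ucp2) have them below, with Slc38a1 spread from 4.58 to 72.9 CPM in Met2.

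Outside chromosome 9, 16 genes fell. Pctp, which carries phosphatidylcholine between membranes, had 0 counts in all 3 Met3 libraries and 10.2, 0.193 and 9.47 CPM in Met2, at least 121-fold lower against a floor of 3 counts over the group (adjusted p = 0.0386). Met2 replicate 2 was thus close to Met3, and the difference lies in the other two Met2 libraries. Slc38a1, a sodium-coupled importer of glutamine, had 0.754, 0.981 and 1.21 CPM in Met3 and 72.9, 4.58 and 10.1 CPM in Met2. All Met3 libraries were lower, but the size rested on Met2 replicate 1, at a log2 change of -4.89 (SE 0.88, adjusted p = 0.0433) with it and -2.88 without it.

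Scd1, the desaturase that makes monounsaturated fatty acids, had 28.6, 15.1 and 27.9 CPM in Met3 and 95.2, 50.5 and 128 CPM in Met2 (log2 -1.94, SE 0.34, adjusted p = 0.0386). Alox12, a lipoxygenase of arachidonic acid, had 2.53, 3.46 and 2.99 CPM in Met3 and 10.3, 8.25 and 20.2 CPM in Met2 (log2 -2.11, SE 0.35, adjusted p = 0.0386). Ucp2, an uncoupling protein of the inner mitochondrial membrane, had 89.3, 85.4 and 81.0 CPM in Met3 and 211, 187 and 165 CPM in Met2 (log2 -1.14, SE 0.16, adjusted p = 0.0342). In each of these the groups were clearly apart, and Met1 was higher than Met2 on average, at 161, 26.3 and 373 CPM. Sort1, a sorting receptor of the Golgi, had 4.90, 2.94 and 4.40 CPM in Met3 and 11.4, 9.22 and 8.44 CPM in Met2 (log2 -1.24, SE 0.23, adjusted p = 0.0461), and was at 48.0 CPM in Met1.

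Fkbp9, a prolyl isomerase of the endoplasmic reticulum, had 18.9, 27.3 and 16.7 CPM in Met3 and 68.3, 49.6 and 41.2 CPM in Met2 (log2 -1.34, SE 0.21, adjusted p = 0.035). Camk1, a calcium and calmodulin dependent kinase, had 11.9, 6.23 and 10.8 CPM in Met3 and 27.3, 17.3 and 26.8 CPM in Met2 (log2 -1.30, SE 0.22, adjusted p = 0.0386). The RNA-binding protein gene Rbms2 had 4.96, 6.0 and 7.49 CPM in Met3 and 34.7, 14.1 and 14.2 CPM in Met2 (log2 -1.77, SE 0.31, adjusted p = 0.0408). In Rbms2 too, Met2 replicate 1 was the highest library of the 6. Zinc-finger genes among the lower ones were Zfp429, at 0.701, 0.808 and 0.367 CPM in Met3 and 6.64, 2.26 and 4.26 CPM in Met2 (log2 -2.80, SE 0.51, adjusted p = 0.0433), Zfp322a (-0.97) and Zfp397 (-0.74). Rbm12b2 (-0.90), 2610318N02Rik (-2.25), Gm14295 (-2.28) and Gm35315 (-1.46) complete the 16, and their adjusted p lay between 0.035 and 0.0499 with those of Zfp322a and Zfp397. Reads of such gene families can be shared among near-identical copies.

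Gata6, the gene of the series title, was almost absent from both groups, with 2 counts over the 3 Met3 libraries (0.108, 0 and 0 CPM) and 20 counts over Met2 (1.21, 0 and 0.147 CPM). The groups overlapped and no difference was called (adjusted p = 0.3). In Met1, Primary3 and Primary2, Gata6 averaged 18.7, 7.34 and 5.14 CPM, and Gata4 averaged 0.0167, 0.0449 and 0.0853 CPM. Gata4, the paralog of Gata6, averaged 13.8 ± 7.33 CPM in Met3 and 4.94 ± 6.69 CPM in Met2 (SD, n = 3 each), with Met2 replicate 1 at 0, and did not pass (log2 1.48, adjusted p = 0.569). Apc and Trp53, named by the genotype, were not called: the log2 change was 0.15 for Apc (adjusted p = 0.627) and 0.28 for Trp53 (adjusted p = 0.588).

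Most gene groups that describe intestinal tumours had no called member. Of 41 lists, which cover cell identity, differentiation, signalling, invasion, immunity, metabolism, growth and other cell types, 39 had 0 called genes. With 0.275% of all tested genes called and at most 32 tested genes a list, this is near the background. Of cholesterol and fatty acid synthesis, Scd1 was the only called gene among 26 tested (median log2 change -0.26). Among the 39, the enteroendocrine, stromal and erythroid lists (3) had no gene that passed the filter on low counts. Of 17 intestinal transcription factors the median change was 0.47 (0.30 without Met2 replicate 1), and Foxa1, a pioneer factor of endoderm, had the smallest p (log2 0.64, SE 0.14, adjusted p = 0.0792). Of 16 immediate early genes the median was 0.73, with 3 above Met2 in all libraries, against 7.77% of all tested genes, and Ier2 closest to a call (log2 0.57, SE 0.13, adjusted p = 0.082). Interferon-stimulated genes had a median of 0.45 over 32 genes, none called.

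Several lists had strongly negative medians that rested on Met2 replicate 1. The median of 18 Wnt feedback and target genes was -1.01 with that library and -0.18 without it. For 14 BMP targets and antagonists it was -1.07 and 0.06, for 9 mesenchymal transition genes -1.03 and 0.12, and for 19 Hox genes -0.61 and -0.15. Vim, the intermediate filament of mesenchymal cells, stood at 44.4 CPM in Met2 replicate 1 and at or under 0.322 CPM in the other 5 libraries. Wif1, a secreted Wnt inhibitor, was at 28.8 CPM in that library. By contrast the median of the 16 immediate early genes was 0.68 without it, and that of 15 squamous genes was -0.52 without it and -0.43 with it.

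The same step of rounds in primary-tumour organoids, Primary3 against Primary2, shares no library with this comparison. It gave 0 called genes of 14925 by edgeR's test, against 1063 (7.12%) at an unadjusted p under 0.05 and 44 by DESeq2. The 41 genes called between Met3 and Met2 had log2 changes of -0.85 to 0.48 in the primaries. A direct test of the difference between the metastasis and the primary change called 0 genes (1817, or 12.2%, at an unadjusted p under 0.05, and 225 by DESeq2). Over the 41 genes the adjusted p of that difference ran from 0.096 to 0.901, so none of them was shown to change in the metastases alone. For Hyal2 the difference was -1.56 (adjusted p = 0.261).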

How the data were processed

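Salmon 1.3.0 and mm10 are named in the submitters' processing notes. The authors deposited gene-level estimated counts for 54418 Ensembl IDs, all whole numbers. The sources used here give no transcript-to-gene step, strand setting, annotation release, batch or date. Per the labels' protocols, RNA came from a PureLink kit and a NEBNext directional poly(A) preparation. Symbols and positions came from GENCODE M21 (GRCm38), which matched 54166 IDs (252 unmatched IDs hold 0.00577% of counts).

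edgeR 4.0.16 under R 4.3.3 was run with filterByExpr by group (14925 genes, 99.9% of counts), TMM factors and a quasi-likelihood F test on group means of all 15 libraries, checked on simulated counts. P-values were adjusted by Benjamini-Hochberg over all tested genes, and a gene was called under 0.05. The standard error was taken as the log2 change over the square root of F. No 2 of the 15 libraries agreed within sampling noise (105 pairs, lowest chi-square per degree of freedom 11.5). Window levels used log2 CPM with a prior count of 2. Exact 0 groups are given as bounds against 3 counts, which cover counting error only.

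Named are called genes with no overlap and a mean log2 CPM from 1 upward (the 12 largest each way), called members of lists and extreme windows, and Gata6, Gata4, Apc and Trp53. Some of the genes so chosen, and 1 gene list, are left out here. The other 17 called genes, Arrdc4 and the genes of distal chromosome 9 that were not called were picked with their values in view. The 41 gene lists, the members and the rule were chosen with earlier results of these data known. Alternatives used limma 3.58.1 and DESeq2 1.42.0.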

Additional observations from a re-analysis of the deposited data

How the results depend on the processing

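Of the 15 alternatives, none reversed any of the 41 called genes, but the number of calls varied widely. Against 41 calls (8 higher, 33 lower, 17 on chromosome 9), no filter on low counts gave 85 (14 higher, 71 lower). DESeq2 gave 588 (151 higher, 437 lower, 106 on chromosome 9) and limma-voom 4 (1 higher, 3 lower, 2 on chromosome 9). With only the 6 libraries, or with the ribosomal RNA share as a covariate, 0 genes passed in either direction and 0 on chromosome 9 (adjusted p 0.591 with only the 6 libraries, for 40 of the 41 genes, Pctp not being tested there, and 0.0724 to 0.328 for the 41 with the covariate). Leaving out 1 library gave 0 (Met2 replicate 1) to 203 calls (Met2 replicate 2), with 0 to 38 higher, 0 to 165 lower and 0 to 61 on chromosome 9. Without Met3 replicate 1 or 2 there were 2 calls, without Met3 replicate 3 there were 10, and without Met2 replicate 3 there were 68. The cause was not tested, and these fits also hold fewer libraries. DESeq2's size factors gave 45 calls, a filter on 3 libraries with a CPM from 1 upward 59, and the table without the ribosomal RNA gene, an alternative chosen after seeing the data, 40. The replicate block, by the number in the titles, left 0 calls, 0 higher, 0 lower and 0 on chromosome 9 (adjusted p of the 41 genes 0.0556 to 0.087). The titles do not say whether equal numbers pair the libraries. Same-numbered deviations correlated at -0.13, 0.19 and -0.07, and the others at -0.17 to 0.18. With 3 libraries a group these values cannot decide it. Primary3 against Primary2 gave 44 calls by DESeq2, 1 by limma-voom and 0 to 2 with a library left out. The difference between metastasis and primary gave 225 by DESeq2 and 0 to 17 with a library left out. Trp53, not called, had a log2 change of 0.28, and of -0.14 with the covariate. With 3 libraries a group and a coefficient of variation of 0.343, a single value fitted over all tested genes, small changes could be missed. The smallest change called was a log2 of 0.54.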
